A study of Mus musculus with 8 samples.

Results

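H3K4me3 in D1 cells given curdlan with FK506, which blocks calcineurin, was compared with that in non-treated (NT) D1 cells. D1 is a long-term splenic dendritic cell (DC) line from C57BL/6 mice. The members of this comparison are the regions in which a peak was called both in NT cells and in cells given curdlan with FK506. They are 14107 of 15955 regions, which were joined by an overlap of 1 bp or more. The joined lists held 15799 NT peaks and 14878 curdlan with FK506 peaks. The stimulated cells received 10 μg/ml curdlan for 2 h, with FK506 as the only labelled difference from a further library of 2 h curdlan alone, while the NT cells received neither. No library had FK506 without curdlan, so effects of FK506 by itself cannot be told apart from those of curdlan in this comparison. The FK506 dose of these libraries is not in the labels, which also do not say whether the cells carried the V5-tagged NFATc2 construct used for a separate ChIP after 30 min of 10 μg/ml curdlan. With a single ChIP and a single input per condition, all from this 1 cell line, no spread between cultures could be measured, and no p-value is given.

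Curdlan is a β-glucan that binds dectin-1, a C-type lectin receptor of myeloid cells. Dectin-1 signals through the kinase Syk along branches that include CARD9 with BCL10 and MALT1 to NF-κB, the MAP kinases to AP-1, and phospholipase Cγ2 with calcium to the phosphatase calcineurin, which frees NFAT factors to enter the nucleus. FK506 binds the immunophilin FKBP12, and this complex blocks calcineurin. Trimethylation of lysine 4 of histone H3 (H3K4me3) marks the starts of active and poised genes, and tends to spread and deepen over a start as transcription rises.

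The change of a region was the log2 ratio of its tags per 1000000 ChIP tags (scaled tags), curdlan with FK506 over NT, minus the median of this ratio over the paired regions. A rise or fall means a centred change of at least 2-fold, and intervals are 95% exact counting intervals, which leave out all variation between cultures and ChIPs. Depth was 16662316 ChIP tags for NT and 19468498 for curdlan with FK506, of which 57.9% and 51.3% lay in peaks, and the median paired region held 529 and 542 tags. A gene's promoter was the region inside or within 1 kb of an annotated transcription start site (TSS), and 12374 genes had a paired promoter, 10795 of them protein-coding. Of 14 dendritic and myeloid markers, 13 had a paired promoter, among them Itgax, Irf4, Zbtb46, Clec7a (dectin-1 itself) and Spi1 (listed under its older symbol Sfpi1), and only Flt3 had no peak. Among 24 markers of T cells, B cells, fibroblasts, epithelium, erythroid cells and neurons, 20 had no peak in either list, and the 4 that did were Lck, Cdh1, Klf1 and Tubb3.

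Some promoters that rose with FK506 present held short motifs in the 250 bases before the start, which differed between genes. Others, such as Dusp2, Nr4a1 and Tnfaip3, held none of those searched. The stretches below are printed because they show an NF-κB site (Cxcl2, Cd40, Tnip1), the NFAT core GGAAAA or its complement (Cxcl2, Ccl3), the AP-1 site TGANTCA (Plaur), the cyclic AMP response element TGACGTCA (Maff), or, in Cd83, none of these. They are mm9 sequence of the coding strand, read towards the start, and capitals mark the motif matches on either strand.
Cxcl2 (chr5:91332647-91332896, + strand): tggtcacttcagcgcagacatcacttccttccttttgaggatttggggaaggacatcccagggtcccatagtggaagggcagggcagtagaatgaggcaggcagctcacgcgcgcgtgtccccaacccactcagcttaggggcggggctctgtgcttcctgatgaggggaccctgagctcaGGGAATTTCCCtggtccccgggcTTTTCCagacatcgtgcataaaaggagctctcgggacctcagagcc
Cd40 (chr2:164880877-164881126, + strand): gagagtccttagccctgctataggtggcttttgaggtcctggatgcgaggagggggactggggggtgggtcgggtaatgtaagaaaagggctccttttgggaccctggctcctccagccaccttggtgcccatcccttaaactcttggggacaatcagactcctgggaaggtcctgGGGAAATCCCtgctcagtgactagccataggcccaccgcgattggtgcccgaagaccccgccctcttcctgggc
Tnip1 (chr11:54776420-54776669, - strand): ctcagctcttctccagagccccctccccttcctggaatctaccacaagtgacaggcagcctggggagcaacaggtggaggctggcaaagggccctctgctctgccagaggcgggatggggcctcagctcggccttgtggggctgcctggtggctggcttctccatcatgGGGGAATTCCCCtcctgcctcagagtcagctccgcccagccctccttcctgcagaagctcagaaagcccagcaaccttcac
Ccl3 (chr11:83462858-83463107, - strand): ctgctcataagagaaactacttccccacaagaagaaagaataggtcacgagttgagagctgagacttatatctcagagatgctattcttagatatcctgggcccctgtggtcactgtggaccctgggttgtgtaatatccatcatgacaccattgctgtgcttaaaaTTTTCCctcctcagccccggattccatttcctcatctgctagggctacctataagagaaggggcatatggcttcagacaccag
Plaur (chr7:25247269-25247518, + strand): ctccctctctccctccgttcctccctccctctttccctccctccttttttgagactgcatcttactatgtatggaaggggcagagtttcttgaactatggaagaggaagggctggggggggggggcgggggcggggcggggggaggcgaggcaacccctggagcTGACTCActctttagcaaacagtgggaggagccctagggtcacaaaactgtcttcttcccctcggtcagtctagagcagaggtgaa
Maff (chr15:79177721-79177970, + strand): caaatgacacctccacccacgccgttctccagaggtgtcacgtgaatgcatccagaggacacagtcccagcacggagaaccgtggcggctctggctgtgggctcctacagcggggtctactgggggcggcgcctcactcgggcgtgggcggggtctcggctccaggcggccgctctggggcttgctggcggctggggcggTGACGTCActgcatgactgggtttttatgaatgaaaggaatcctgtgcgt
Cd83 (chr13:43880226-43880475, + strand): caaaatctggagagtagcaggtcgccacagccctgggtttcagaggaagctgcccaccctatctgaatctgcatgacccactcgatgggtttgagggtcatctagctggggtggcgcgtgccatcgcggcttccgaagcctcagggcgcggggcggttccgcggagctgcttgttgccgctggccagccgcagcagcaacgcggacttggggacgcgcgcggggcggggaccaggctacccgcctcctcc

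Most of the H3K4me3 landscape moved little with curdlan and FK506, and the changes that passed 2-fold were mostly rises. Before centring, the median paired region was 0.19 lower on the log2 scale in curdlan with FK506, and every change is given relative to this shift. The centred change had a standard deviation of 0.32 across regions, and 95% of regions lay between −0.57 and 0.68. Among paired regions 142 rose and 39 fell, which is 1.01% and 0.276% of them, and at 1.5-fold 488 rose and 336 fell (3.46% and 2.38%). Among genes with a paired promoter 103 rose and 4 fell (0.832% and 0.0323%), and at 1.5-fold 344 rose and 137 fell (2.78% and 1.11%). The excess of rises depended on the scale. Without centring 90 regions rose and 114 fell, and by the deposited fold enrichment, whose median moved up by 0.44 on the log2 scale, 512 rose and 548 fell. The rises and falls also differed in position. A TSS lay within 1 kb of 109 of the 142 risen regions (76.8%, Wilson interval 69.2 to 82.9) and of 78.1% of all paired regions, but of 6 of the 39 fallen regions (15.4%, 7.25 to 29.7).

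**Figure D1:**
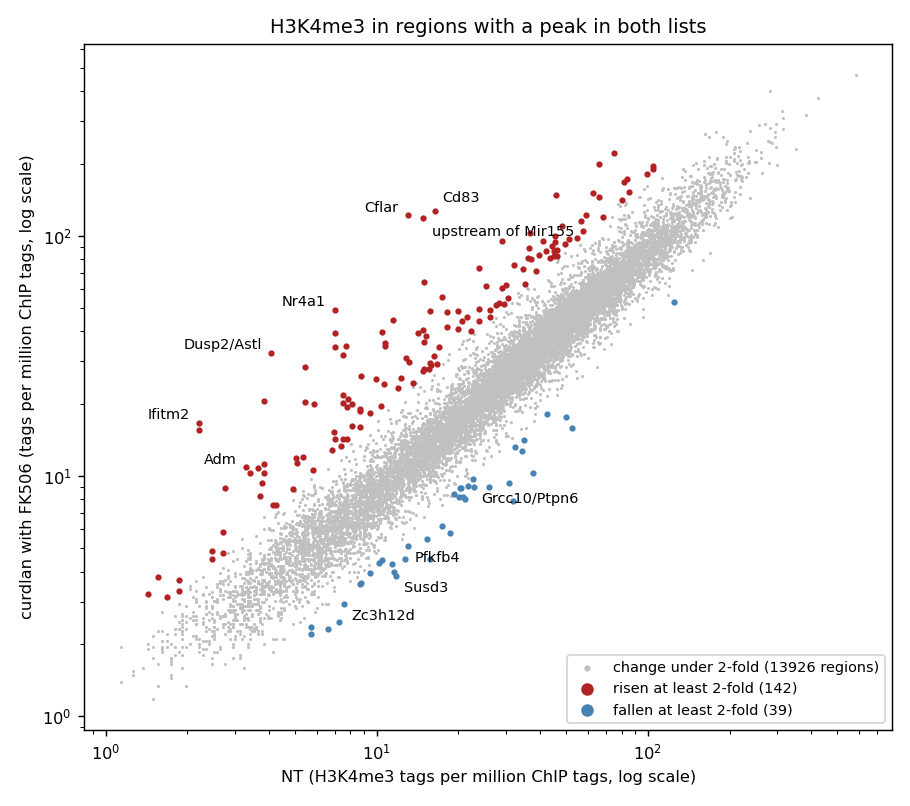
H3K4me3 tags per 1000000 ChIP tags in NT (x axis, log scale) and in curdlan with FK506 (y axis, log scale) for the 14107 regions with a peak in both lists, 1 point per region. Red points are the 142 regions that rose at least 2-fold after centring and blue points the 39 that fell. The red points reach from the weakest to strong regions, and the blue points lie mostly below 100 in NT.

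Risen regions became both longer and denser. Their median summed peak length went from 2292.5 bp in NT to 4186.5 bp in curdlan with FK506, against 2536 and 2583 bp over all paired regions, and 141 of 142 were longer. On the log2 scale the median change was 1.30, the median length ratio 0.70 and the median change of tags per base 0.70. The density of 135 of 142 was above the median-centred zero. In each region, though not in these medians, length and density add up to the change by which risen and fallen regions were chosen. These counts therefore describe the chosen regions and are not separate evidence of a change. In fallen regions the length carried more of the change. Their median length went from 3252 to 1802 bp, and 38 of 39 were shorter. The median change was −1.18, with separate medians of −0.87 for length and −0.40 for density. Counted as tags per kb of peak, only 32 regions rose and 6 fell, so most calls join a longer or shorter called peak with a smaller change in its density.

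**Figure D2:**
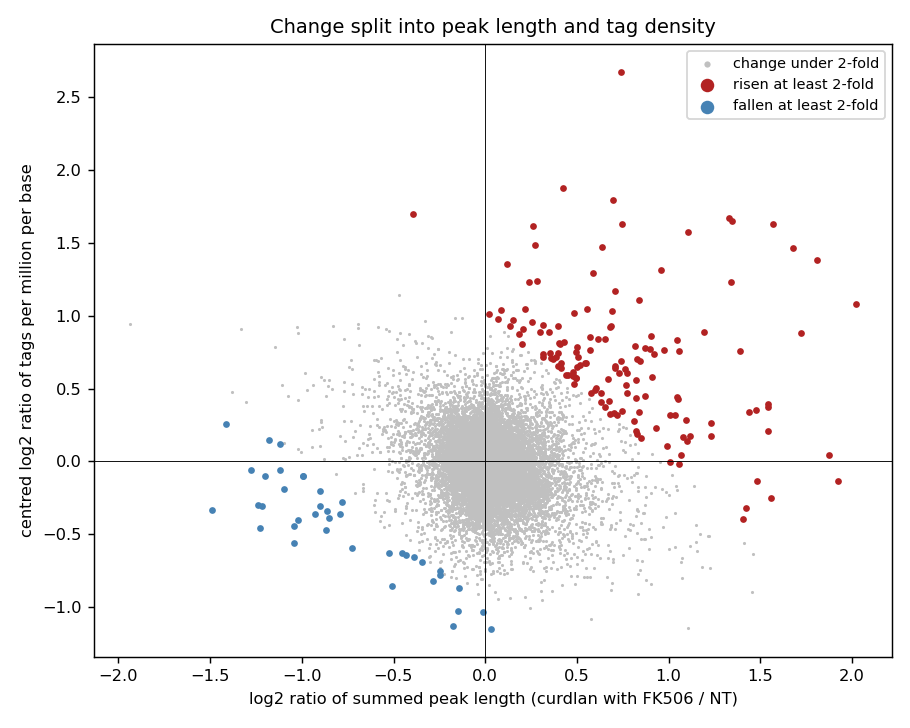
Log2 ratio of summed peak length (x axis) and centred log2 ratio of tags per base, scaled to library size, (y axis) for each paired region, curdlan with FK506 over NT. Both values of a point add up to its centred change. Risen regions (red) lie mostly to the upper right, and fallen regions (blue) mostly to the lower left.

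The 15 largest rises at protein-coding starts ran from 3.76-fold to 10.7-fold. The highest value was at Cflar, which encodes c-FLIP, an inhibitor of caspase-8. A region over a downstream annotated start of this gene (chr1:58781462-58787660) went from 217 tags in NT to 2374 in curdlan with FK506, a centred change of 3.42 (3.22 to 3.62). The main Cflar promoter region went from 1343 to 2287 tags, a change of 0.73 that did not pass 2-fold. Dusp2, a nuclear phosphatase that switches off MAP kinases, shared its region with Astl, an egg metalloproteinase. That region held 68 tags in NT and 634 in curdlan with FK506, a change of 3.19 (2.82 to 3.57). Cd83, the classic surface marker of mature DCs, went from 273 to 2471 tags (3.14, 2.96 to 3.33), and its peak lengthened from 2875 to 9207 bp. Nr4a1, an orphan nuclear receptor induced within minutes of stimulation, went from 117 to 956 tags (2.996, 2.72 to 3.29). The interval of Cflar overlaps those of Dusp2, Cd83 and Nr4a1, and the order of these 4 was not tested.

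Weak promoters were also among the 15. Ifitm2, an interferon-induced membrane protein, went from 37 to 325 tags (3.10, 2.61 to 3.63). Ptafr, the receptor for platelet-activating factor, went from 91 to 552 tags (2.57, 2.24 to 2.90). Rgs1, which shortens signals of G protein-coupled receptors, went from 98 to 387 tags (1.95, 1.62 to 2.28). Adm, the vasodilator adrenomedullin, went from 55 to 212 tags (1.91, 1.48 to 2.37). All 4 stood in NT at 2.22 to 5.88 scaled tags, and their peaks lengthened. For Adm the change of 1.91 split into 1.54 for length and 0.37 for density, and its deposited fold enrichment went from 8.33 to 7.53. Afap1l2, an adaptor of Src-family kinase signalling, went from 117 to 767 tags (2.68), Phldb1 from 128 to 680 (2.38) and Fam167a from 175 to 775 (2.11). At Plcb2, a phospholipase C of G protein signalling, an internal start went from 37 to 303 tags (2.9995), while the main promoter region held 1920 and 1883 tags.

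Of the lists examined, chemokines had the highest median change. All lists were chosen with earlier results of these data known, so their medians and shares are not independent evidence of a direction. Of 24 chemokine genes 9 had a paired promoter, and 6 of these rose, with a median change over the 9 of 1.39 beside 0.01 over all genes, of which 0.832% rose. Of the 6, Ccl22 and Ccl3 also passed 2-fold by tags per kb, and 4 passed by fold enrichment, where Ccl22 lay at 0.08 and Cxcl2 at 0.44. Ccl22, a ligand of CCR4 made by mature DCs, went from 125 to 619 tags (2.27, 1.99 to 2.56). Cxcl16, the ligand of CXCR6, lay in a region shared with Zmynd15 that went from 192 to 871 tags (2.15, 1.92 to 2.38). The neutrophil attractant Cxcl2, whose promoter above carries an NF-κB match 69 to 59 bases before the start, went from 179 to 699 tags (1.93, 1.69 to 2.18). Ccl3 and Ccl4, the neighbouring MIP-1 chemokine genes, went from 179 to 677 (1.88) and from 302 to 812 tags (1.39). Ccl17, the other CCR4 ligand, went from 435 to 895 tags, at 1.01 just past the limit and at 0.82 without centring. The remaining 3 did not pass in either direction, at 0.26 for Ccl12, 0.15 for Ccl6 and −0.37 for Ccl2. Ccl1, a ligand of CCR8, had a peak only with curdlan and FK506, of 122 tags, and 14 chemokine genes, among them Ccl5, Cxcl9 and Cxcl10, had no peak in either list.

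The NF-κB genes that rose encode its inhibitors and their partners. All 17 genes of NF-κB subunits and inhibitors had a paired promoter, 3 rose and none fell, beside 0.832% risen over all genes, and the median change was 0.51. By tags per kb only Tnfaip3 of the 3 passed 2-fold (1.51, with Tnip1 at 0.67 and Nfkbib at 0.62), by fold enrichment none did, and without centring Nfkbib lay at 0.84. Tnfaip3, the ubiquitin-editing enzyme A20, went from 1245 to 4300 tags (1.75, 1.66 to 1.85), and Tnip1, its partner ABIN1, from 600 to 1571 (1.35). Nfkbib, the inhibitor IκBβ, shared its region with Sirt2 and went from 909 to 1907 tags (1.03). Zc3h12a, an endonuclease of inflammatory mRNAs, lay just outside the limit at 0.9957, with 1290 and 2634 tags, and Arhgef3 just inside it at 1.003, with 1142 and 2343 tags, and at 0.81 without centring. The subunits Rel and Nfkb2 changed by 0.69 and 0.66, Relb by 0.39 and Rela by 0.09. Nfkbia, the inhibitor IκBα, changed by −0.28, from 441 to 372 tags. Outside the list, Traf1, an adaptor of TNF receptors, went from 764 to 2886 tags (1.88, 1.77 to 2.00). It was named after its value was seen, and lay at 0.86 by tags per kb and −0.40 by fold enrichment.

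Some AP-1 and immediate-early factors rose. Of 17 AP-1 genes with a paired promoter 3 rose, beside 0.832% risen over all genes, and the median change of the 17 was 0.36. Atf3 went from 1103 to 2832 tags (1.33), Fosb from 481 to 1183 (1.26) and Maff, a small Maf protein whose promoter holds the response element 50 to 43 bases before the start, from 587 to 1229 (1.03). By deposited fold enrichment, relative to the median region, Fosb and Maff lay at −0.07 and −0.08. Fos and Batf changed by 0.61 and 0.90, Junb by 0.20 and Jun by −0.18. Of 23 immediate-early genes with a paired promoter 4 rose, beside the same 0.832%. They were Nr4a1 at 2.996, Csrnp1 at 1.45 (1042 to 2925 tags), Nr4a3 at 1.10 (1740 to 3808 tags) and Egr1 at 1.02 (769 to 1601 tags). Nr4a3 and Egr1 lay at −0.12 and −0.16 by fold enrichment. The third nuclear receptor of that family, Nr4a2, held 2907 tags in NT and 2937 with curdlan and FK506, a change of −0.02, and Egr2 and Egr3 changed by 0.29 and 0.47. By tags per kb only Fosb of the 3 AP-1 genes and Nr4a1 of the 4 immediate-early genes passed 2-fold, and without centring Maff (0.84), Egr1 (0.83) and Nr4a3 (0.91) did not.

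Feedback regulators of MAP kinases split by gene. Of 15 with a paired promoter 3 rose, beside 0.832% risen over all genes. They were Dusp2 at 3.19, the stress-activated regulator Gadd45b at 1.22 (942 to 2248 tags) and the phosphatase Dusp1 at 1.07 (647 to 1389 tags). Dusp5, which acts on ERK, changed by 0.82 and Dusp6, another ERK phosphatase, by −0.39. Of the 3, Dusp2 alone passed 2-fold by tags per kb and none by fold enrichment, and Dusp1 lay at 0.88 without centring. Cytokine signalling feedback had no gene past 2-fold among 15, and the largest change was that of Socs3 at 0.90, from 1648 to 3147 tags. The components between dectin-1 and NF-κB also had none among 23. Malt1, the paracaspase of the CARD9 complex, came nearest at 0.80, from 2962 to 5270 tags, Ikbkb changed by 0.60, Syk (Sykb in this annotation) by 0.14, Card9 by −0.21 and Clec7a by −0.31.

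Genes of the blocked pathway itself showed no change past 2-fold. Among 21 calcineurin and NFAT genes with a paired promoter the median change was −0.07, and the values ran from −0.40 for Itpkb to 0.50 for Fkbp1a, which encodes FKBP12, the binding protein of FK506. Rcan1, a calcineurin inhibitor that is itself a known NFAT target, held 145 tags in NT and 171 with curdlan and FK506 (0.20). Nfatc1 held 2596 and 2921 tags (0.14) and Nfatc2 2227 and 2365 tags (0.05).

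Maturation genes, on a list chosen with earlier results of these data known, had a higher median than all genes. Of 18 costimulation and maturation genes with a paired promoter 15 were above 0, 3 rose, and the median was 0.49. Over all genes 0.832% rose and the median was 0.01. Besides Cd83, the costimulatory receptor Cd40 went from 605 to 1739 tags (1.49, 1.35 to 1.62) and Marcksl1 from 26 to 74 tags (1.47, 0.81 to 2.18). By tags per kb Cd40 lay at 0.86, and by fold enrichment Cd83 alone of the 3 passed 2-fold. Cd80 and Cd86, the ligands of CD28, changed by 0.70 and 0.59, and Ciita, the master regulator of MHC class II genes, by −0.21. Among 10 inflammatory enzyme and protease genes only Plaur rose, the receptor of urokinase, from 702 to 1684 tags (1.23, and 0.70 by tags per kb), and Ptgs1, the constitutive cyclooxygenase, changed by −0.70, from 1101 to 692 tags. Ptgs2, its inducible counterpart, had no peak within 1 kb in either list.

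Further rises lay outside the lists and are named after their values were seen. Stat5a, a transcription factor of cytokine signalling, went from 613 to 2000 tags (1.67), and Rapgef2, an exchange factor of Rap GTPases, from 261 to 950 (1.83). Among chromatin genes the H3K79 methyltransferase Dot1l went from 398 to 1432 tags (1.81) and the H3K27 demethylase Kdm6b from 1658 to 3529 (1.06), though by fold enrichment these lay at 0.07 and −0.56. The autophagy receptor Sqstm1 (p62) went from 807 to 2149 tags (1.38) and Optn (optineurin), another such receptor, from 213 to 604 (1.47). Of genes of cell death, Fas went from 157 to 356 tags (1.15) and the inflammatory caspase Casp4 from 144 to 372 (1.34). The nucleotide receptor P2ry2 went from 64 to 219 tags (1.74) and the sphingosine 1-phosphate receptor S1pr3 from 987 to 2377 (1.23). Of these genes Optn alone also passed 2-fold by tags per kb, and Kdm6b and Fas did not pass without centring.

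Cytokine promoters were mostly without a peak. Of 38 cytokine genes 21 had no peak in either list, 14 were paired with a median change of −0.00, and 3 had a peak only with curdlan and FK506. Ebi3, the β chain shared by interleukins 27 and 35, went from 420 to 1207 tags (1.49) and Lif from 507 to 1069 (1.04), but neither passed 2-fold by tags per kb (0.60 and 0.61), and Ebi3 lay at −0.22 by fold enrichment. Tnf shares its region with Ltb, and that region held 3884 and 3544 tags, a change of −0.17. Il17d changed by −0.52, from 608 to 434 tags. Of 41 cytokine, chemokine and Egr genes that the study listed from these cells, 16 had a paired promoter, 5 of them rose (Cxcl16, Cxcl2, Ccl3, Ccl4 and Ccl17, of which Ccl3 alone also passed by tags per kb), 5 had a peak only with curdlan and FK506 and 20 had none. Over all genes with a paired promoter 0.832% rose. The study drew up its list with data of the same cell line, so the counts of that list are not independent evidence of a direction. Il2 and Il12b had no peak in either list, the silent control Sox2 had none, and the housekeeping gene Actb held 4682 and 5485 tags (0.19).

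**Figure D3:**
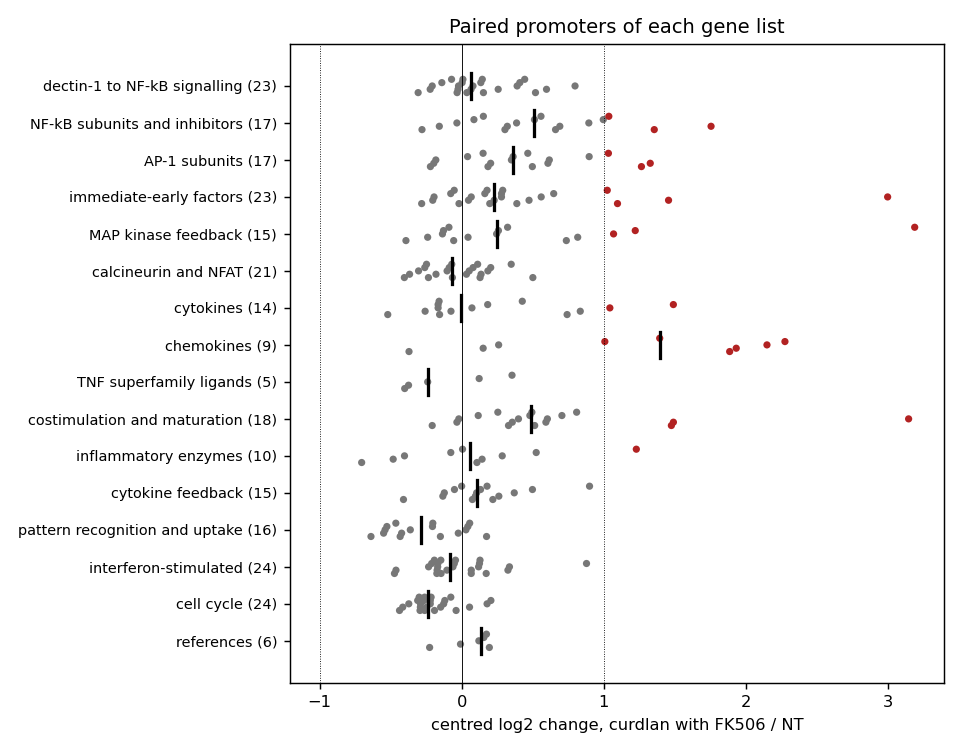
Centred log2 change of curdlan with FK506 over NT for each gene with a paired promoter, by gene list, with the number of genes in brackets. Each point is a gene, black bars are medians, dotted lines mark 2-fold and red points are genes that rose. Chemokines have the highest median, 1.39, and pattern recognition genes the lowest, −0.28.

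Il1a, Tnfsf15, Tnfsf14 and Il23a were among the promoters with a called peak in curdlan with FK506 and none in NT. Regions with a peak only in curdlan with FK506 numbered 510, and 120 of them lay within 1 kb of a TSS. They were weak, with a median of 73 tags. Where no peak was called the list gives no value, so no ratio is printed for them. The promoter with most tags was Il1a, the alarmin interleukin 1α, with 409 tags, followed by Tnfsf15 (TL1A) with 286, Wnt11 with 257 and the sialic acid receptor Siglec5 with 226. Tnfsf14 (LIGHT) had 197 tags, Il23a (the p19 subunit of interleukin 23) 189, the fatty acid receptor Gpr84 181, the protease inhibitor Stfa2 176 and the region of Phxr2 and Poc1b 135. An internal start of the kinase Src had 197 tags, beside a paired Src region of 41 and 55 tags. Il1rn, the receptor antagonist of interleukin 1, had 110 tags.

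Regions with a peak only in NT were more numerous, 1338, of which 295 lay within 1 kb of a TSS, and their median was 72 tags. The promoters with most tags were Mertk, a receptor for the uptake of apoptotic cells, with 249, a start of A630007B06Rik with 248, a start of Tbc1d14 with 237, a start of Tmc8 with 235 and Cd5, an inhibitory scavenger-type receptor, with 226. Myl2 had 186 tags, 4732471J01Rik 177, a start of Sec14l2 171, Zp1 167 and Cst7, a protease inhibitor of leukocytes, 165. Curdlan alone gave a peak at Mertk (18.6 scaled tags, beside 14.9 in NT) and Cst7 (12.7 and 9.90). It also gave peaks at Tmc8 (10.6 and 14.1), Zp1 (8.31 and 10.0), Tbc1d14 (7.42 and 14.2) and Sec14l2 (7.42 and 10.3). The other promoters named here had no curdlan peak. Of all 1338 regions, 512 had a curdlan peak (38.3%). The paired regions at the other starts of A630007B06Rik, Tbc1d14, Tmc8 and Sec14l2 changed by 0.19, −0.11, −0.16 and 0.15. Of the 10 NT-only regions with most tags anywhere, 6 lay on chromosome 5, whose part beyond 120000000 bp had more tags than usual in both lists (medians of 1097 and 1080 in 346 paired regions, against 529 and 542 overall) and a median change of −0.01. Myl2 lies in that part, and what a higher local level does to peak calls was not tested.

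Past 2-fold 4 genes fell, a count that was 33 without centring, 396 by deposited fold enrichment and 1 by tags per kb. They were Zc3h12d, Grcc10, a U7 small nuclear RNA in the Grcc10 region and the immunoglobulin segment Gm9232. Zc3h12d, a relative of Zc3h12a, went from 126 to 57 tags (−1.18, −1.66 to −0.72), but its fold enrichment went from 8.47 to 23.1. The Grcc10 region, which also holds a start of Ptpn6 (the phosphatase SHP-1), went from 381 to 175 tags (−1.16, −1.42 to −0.89). This was a loss of length from 4870 to 1829 bp, and its density per base, relative to the median, was 0.26 higher. The main Ptpn6 promoter region held 2237 and 2051 tags (−0.16). Internal starts of Susd3 (197 to 75 tags, −1.43), Pfkfb4 (217 to 100, −1.15) and Plekha2 (321 to 164, −1.003) also fell, the last by length alone since its tags per kb were 0.14 higher, while the main regions of these genes changed by −0.58, −0.09 and −0.13. The rest of the 15 largest falls lay between −0.99 and −0.87 and did not pass 2-fold. Fyn, a Src-family kinase, held 912 and 499 tags (−0.90, −1.06 to −0.75), the inflammasome sensor Nlrp1b 526 and 281 (−0.94), the inhibitory lectin Siglece 357 and 197 (−0.89), Lilra6 100 and 55 (−0.90), Pigz 353 and 194 (−0.90) and the lysophospholipid receptor Gpr34 1596 and 894 (−0.87). Gm10384 (−0.96) and starts of A630055G03Rik (−0.97) and Rps6ka3 (−0.87) completed the group, with Cacnb3, which held 229 and 118 tags (−0.99). The direction of 3 of these depended on the measure. The called peak at Cacnb3 was 3515 bp in NT and 919 bp with FK506, and its tags per kb were 0.97 higher relative to the median. A630055G03Rik lay at 0.15 by tags per kb and 0.05 by fold enrichment, and Nlrp1b at 0.21 by fold enrichment.

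Medians were also below 0 for innate receptor and cell cycle genes, with no gene reaching 2-fold. Centring sets the median of all paired regions to 0. The median over all genes was 0.01. The standard deviation of 0.32 across regions describes single regions and does not measure the uncertainty of a list median, which was not tested. Of 16 pattern recognition and uptake genes with a paired promoter 12 were below 0, none passed, and the median was −0.28. The flagellin receptor Tlr5 held 558 and 367 tags (−0.64), Tlr13 589 and 412 (−0.55), the ADP receptor P2ry12 1058 and 752 (−0.53) and Tlr4 1593 and 1208 (−0.43), whereas Tlr2, a receptor for microbial lipopeptides, held 1087 and 1157 (0.06). Of 24 cell cycle genes 21 were below 0 with a median of −0.23, among them Ccne2 at −0.44 and E2f1 at −0.42. Of 24 interferon-stimulated genes 15 were below 0, with a median of −0.08, and Irf8, a DC lineage factor that was also on that list, was highest at 0.88. The TNF ligand genes with a paired promoter numbered 5 of 14 and none passed, with Tnfsf9 (4-1BB ligand) at 0.35 and Tnfsf8 at −0.40.

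**Figure D4:**
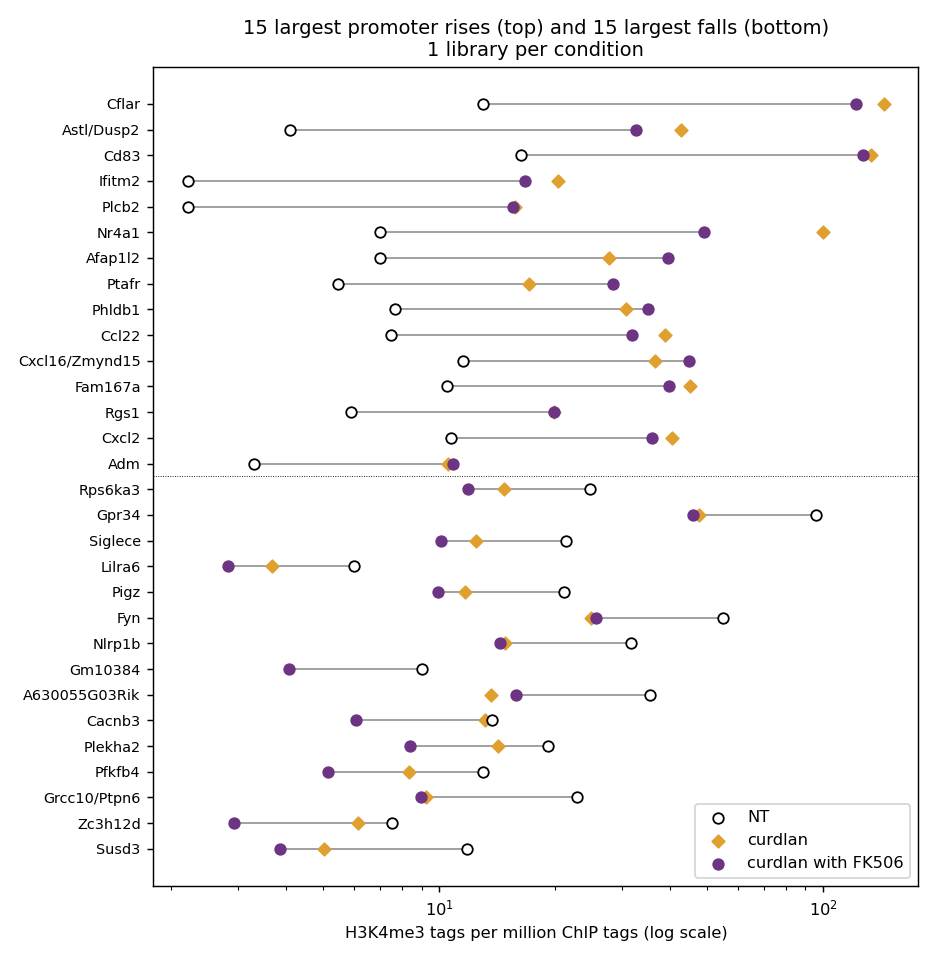
H3K4me3 tags per 1000000 ChIP tags (x axis, log scale) at the 15 largest rises and 15 largest falls with a protein-coding start, in NT (open circles), curdlan (diamonds) and curdlan with FK506 (filled circles), 1 library each. A row is named by the genes whose starts lie in the region. At Cd83 the curdlan value of 133 lies beside the 127 of curdlan with FK506, at Nr4a1 the values are 99.8 and 49.1, and Gm10384 has no curdlan peak.

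The curdlan list shows the same regions without FK506. Its change against NT would use the same NT list as the comparison above, so levels are given side by side with no count of overlap. In the 142 risen regions the median level was 14.9 scaled tags in NT, 38.8 in curdlan and 38.9 in curdlan with FK506. In the 39 fallen regions it was 19.3, 8.36 and 7.86, and over all paired regions 31.7, 29.8 and 27.8. Both sets were chosen by their NT and curdlan with FK506 levels, so the rule itself shaped those medians. Their closeness to the curdlan medians does not measure the effect of FK506, which was not tested. Within the 142, the scaled level before centring was higher with FK506 than with curdlan alone in 70 and lower in 72. A curdlan peak was called in 141 of the 142, and the region without one was counted as higher with FK506. Over the 141, the centred log2 ratio of these levels ran from −4.21 to 1.12. Cd83 had 16.4, 133 and 127 scaled tags, the Mir155 region below 14.8, 122 and 119, and Rgs1 5.88, 19.9 and 19.9. Levels with FK506 were lower than with curdlan alone at Nr4a1 (7.02, 99.8 and 49.1), Dusp2 (4.08, 42.7 and 32.6) and Siglec5, where NT had no peak and the 2 stimulated lists had 39.2 and 11.6. Tnfsf14 and Il23a, also without an NT peak, had 43.4 and 10.1, and 19.4 and 9.71. Levels with FK506 were higher at Afap1l2 (7.02, 27.8 and 39.4) and Ptafr (5.46, 17.1 and 28.4). Of the 15 largest falls, also chosen by their level with FK506, 14 had a curdlan peak. At 12 of these, the scaled level before centring was lower with FK506 than with curdlan alone. After centring, 2 of the 12, the Grcc10 and Nlrp1b regions, lay at 0.007 and 0.008. Among the 12, Cacnb3 had 13.7, 13.2 and 6.06 scaled tags and Plekha2 19.3, 14.2 and 8.42. Fyn, with 54.7, 24.9 and 25.6, was already lower with curdlan alone. These are single libraries, and differences between them cannot be told apart from differences between cultures.

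Sites of NFATc2, the factor that FK506 keeps out of the nucleus, were mapped in a separate ChIP after curdlan without FK506. The rule that chose the regions did not use them. A summit lay within 20 kb of a TSS for 64 of 94 risen protein-coding promoters (68.1%, Wilson interval 58.1 to 76.6) and for 4012 of 10795 with a paired promoter (37.2%, 36.3 to 38.1). Within 1 kb the shares were 20.2% (13.3 to 29.4) and 9.98% (9.43 to 10.6). Promoters that fell at least 1.5-fold also had a summit within 20 kb more often than all promoters, 57 of 105 (54.3%, 44.8 to 63.5), and those that rose at least 1.5-fold 178 of 304 (58.6%, 52.9 to 64.0). The share also moved with the level of the mark, from 28.9% of the 2699 promoters with the lowest NT level to 49.98% of the 2699 with the highest. A summit within 1 kb was present at Nr4a1, Cxcl2, Ccl3, Ccl4, Ccl17 and Nfkbib, and absent within 20 kb at Dusp2, Tnfaip3, Ccl22, Cd40 and Fosb.

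Promoters that moved were less often rich in CpG than promoters at large. The CpG observed over expected ratio was taken in the 500 bases to each side of a protein-coding start and read for 10661 promoters. It reached 0.6, a usual mark of a CpG island, in 60.4% of risen promoters (50.2 to 69.9), in 33.3% of those that fell at least 1.5-fold (24.8 to 43.1) and in 77.0% of all. In the 250 bases before the start, an NF-κB site on either strand was present in 10 of 91 risen promoters (11.0%, 6.08 to 19.1) and in 4.41% of all. The AP-1 site TGANTCA was present in 6.59% (3.06 to 13.6) and 3.90%, the response element TGACGTCA in 5.49% (2.37 to 12.2) and 2.98%, and the NFAT core GGAAAA in 23.1% (15.6 to 32.7) and 18.7%. The serum response element called CArG was found in 2 of 91 and in 0.985% of all. These counts describe letters in a window and do not show that a factor was bound.

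**Figure D5:**
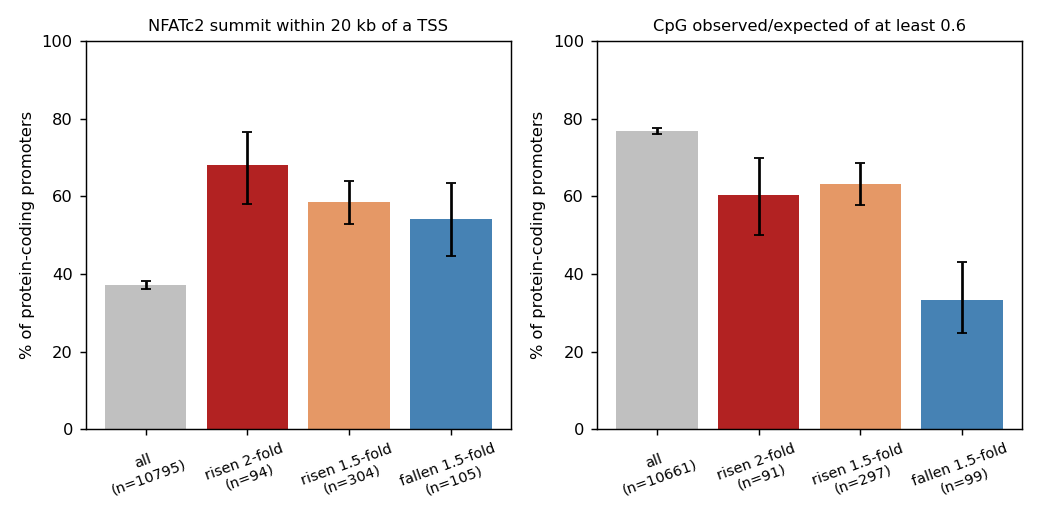
Share of protein-coding paired promoters whose start has a summit of NFATc2 at most 20 kb away (left) and with a CpG observed over expected ratio of at least 0.6 (right). Groups are all paired promoters and those that rose at least 2-fold, rose at least 1.5-fold or fell at least 1.5-fold, and error bars are 95% Wilson intervals. The NFATc2 share is 68.1% for 2-fold rises and 37.2% for all, and the CpG share is lowest, 33.3%, in falls.

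Away from any TSS 33 regions rose and 33 fell. The strongest rise, 246 to 2317 tags (3.20, 3.01 to 3.40), was at chr16:84702357-84709333, which ends 5052 bp before the annotated hairpin of Mir155 and 3935 bp before a noncoding RNA of the same name. The region at those starts held 201 and 202 tags (−0.03). The microRNA miR-155 is a regulator of myeloid and lymphoid activation that is cut from a longer host transcript, and its mature form is given here with its seed, bases 2 to 8, in capitals, from RefSeq (GRCm38.p6).
mmu-miR-155-5p: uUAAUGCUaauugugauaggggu
A region 9166 bp from Nr4a1 went from 64 to 399 tags (2.61, 2.22 to 3.01) and held 2 NFATc2 peaks. Regions inside Vps8 (248 to 1250 tags, 2.30), inside Iqgap1 (91 to 395, 2.08), inside Cd9 (125 to 424, 1.73), inside H2-Eb1 (125 to 392, 1.61) and 8085 bp from Fosb (57 to 200, 1.78) were also higher. The 10 largest also held a region on chromosome 10 far from any gene start (117 to 673 tags, 2.49), one at the end of chromosome X (481 to 1857, 1.91) and a region inside B4galt1 (302 to 939, 1.60). The chromosome X change split into 1.87 for length and 0.04 for density. By tags per kb, only the regions near Mir155 (1.65), on chromosome 10 (1.82), inside Vps8 (1.90) and inside Cd9 (1.06) passed 2-fold. By fold enrichment, only those near Nr4a1 (2.02) and Fosb (1.10) and inside B4galt1 (1.31) and Cd9 (1.02) passed. The chromosome 10, H2-Eb1 and Mir155 regions lay at 0.11, 0.13 and 0.44 by that measure. The deepest fall of any region was 27253 bp from Prex1, an exchange factor of Rac, from 529 to 153 tags (−1.82, −2.09 to −1.56), and its fold enrichment was 10.6 in both lists. A region inside Siglece, next to its promoter, went from 630 to 201 tags (−1.68, −1.92 to −1.45), and regions inside Vrk1 (873 to 308, −1.54) and Pax3 (513 to 182, −1.53) fell. The length of each of these 4 was lower, with log2 length ratios from −1.49 to −1.22.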

How the data were processed

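ChIP-seq reads were aligned to mm9 by the authors with bowtie 1, and peaks were called in each library against its own input with MACS, whose headers give version 1.4.2, at a p-value cutoff of 1e-05. The deposited lists give a tag count per peak, a score made from the logarithm of the p-value, a fold enrichment (a ratio over the local background) and, per the file headers, an empirical FDR in percent. The tag counts were not normalised by the authors. A region without a called peak has no value in a list.

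Overlapping NT and curdlan with FK506 peaks were joined and their tags summed, divided by the header ChIP tags and centred on the median of paired regions. Intervals are 95% exact (Clopper-Pearson) for tag ratios and Wilson for shares, cover counting error only, and had a median half-width of 0.18 (log2). The calculations were tested on simulated data. Genes and starts are from Ensembl release 65 on mm9, and a gene was counted once, at the region nearest to a start.

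The text names the 15 largest rises and 15 largest falls with a protein-coding start and at least 100 tags in a list, list members past 2-fold with up to a few others, the 10 promoters with most tags in 1 list only, and genes stated as chosen after their values were seen. Members and lists were chosen with earlier results of these data known. Sequences were read from mm9, with motifs searched on both strands. Calculations ran in Python 3.11.15 with scipy 1.17.1 for intervals, pandas 2.3.3 and numpy 2.4.6 for tables, pysam 0.24.0 for sequence and matplotlib 3.10.9 for plots. Alternatives changed the pairing, measure, centring, peak threshold, tag minimum, fold and promoter definition.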

Additional observations from a re-analysis of the deposited data

How the results depend on the processing

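With 1 library per condition, the differences have no replicate check, and depth limits weak promoters most. No paired analysis was possible because each condition had 1 library. Counts are given for risen and fallen regions, then risen and fallen genes. They were 32, 6, 23 and 1 by tags per kb of peak, 512, 548, 442 and 396 by deposited fold enrichment, 90, 114, 63 and 33 without centring, 488, 336, 344 and 137 at 1.5-fold, and 85, 10, 63 and 0 where the nearer interval bound had to pass 2-fold. With peaks of p at most 1e-10, fallen regions numbered 22 and regions only in curdlan with FK506 302. With starts of protein-coding transcripts alone, 2 genes fell. The other 37 counts stayed within 1.5 times the main value. Of 82 named changes, 70 kept their sign by fold enrichment, 78 by tags per kb and 82 under each other centring. Among those past 2-fold, the sign turned by fold enrichment for Adm (−0.59), Kdm6b (−0.56), Traf1 (−0.40), Ebi3 (−0.22), Egr1 (−0.16), Nr4a3 (−0.12), Maff (−0.083), Fosb (−0.067), Zc3h12d (1.00) and a region nearest to Sclt1 (0.60), and by tags per kb for the Grcc10 and Ptpn6 region (0.28) and Plekha2 (0.14). Among smaller changes it turned for Cacnb3 (0.97 by tags per kb), Nlrp1b (0.21 by fold enrichment) and A630055G03Rik (0.15 and 0.05). The cause was not tested.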
